A study of Bos taurus with 6 samples.

Results

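The telomere-proximal (distal) ends of the 29 cattle autosomes were examined for CpG methylation in rumen epithelial cells. Each autosome was cut into 100-kb bins from position 1, and the distal bins were those that began within the last 5 Mb before the highest position seen on that autosome. Of 1450 such bins, 1442 held at least 100 CpG reads in every library and were kept, out of 27035 bins of all sequences that met the same minimum. The rule used position and read depth and no methylation value. The distal bins were compared with 19269 interior bins, which lay over 10 Mb from both ends, and with 1449 bins of the opposite, proximal 5 Mb. Positions are those of UMD3.1.1, and the highest position seen in these files stood for the chromosome end.

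Whole-genome bisulfite sequencing (WGBS) was run on rumen epithelial primary cells (REPC), which were cultured from the rumen lining of 1 Holstein bull calf, 2 weeks old and fed milk replacer. The 3 control libraries came from untreated cultures, and the 3 butyrate libraries from cultures kept for 24 h in 5 mM butyrate, a short-chain fatty acid that rumen microbes make and that inhibits histone deacetylases. All 6 libraries carried the same genome, so a difference between groups concerned these cultures, and p-values measured the spread between libraries of 1 animal. Butyrate replicates 1 and 3 were sequenced on lane 5 and butyrate replicate 2 and all controls on lane 6. The identity of the cells could not be checked with markers in these files, which hold methylation reads only.

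The autosomes of cattle are acrocentric: the centromere lies close to 1 end, which the assembly places at the low positions, so that each autosome has a single long arm whose telomere is at the high positions. Telomeres are caps of short repeats, and the subtelomeric DNA inside them is often rich in genes, in GC and in duplicated segments. Methylation of cytosine in CpG is common along vertebrate chromosomes and is mostly absent from CpG islands, the short CpG-dense stretches that mark many promoters.

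The distal bins held 2366394 to 3122505 CpG reads per library, with a median of 1566.5 reads per bin and library against 435 in the interior. A CpG cytosine was read on average 0.546 times per library in the distal bins and 0.544 times in the interior, counting only cytosines seen in at least 1 library. The 95% Wilson interval of a library's level over all distal bins was at most 0.0584 percentage points to either side, counting error only. It takes every CpG read as independent, which reads of 1 molecule are not, so it is too narrow. Of the reads in distal bins, 4.92% fell on very deeply covered CpGs (over 141 reads summed over the libraries), against 8.24% in the interior. The 8 distal bins that missed the minimum were 3 adjacent bins of chromosome 5 (117300001 to 117600000) and the shortened last bins of chromosomes 9, 10, 23, 27 and 28. The members nearest the minimum held 109, 112 and 119 reads in their lowest library, and the nearest bins that missed it held 92, 80 and 74.

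The distal ends were CpG-dense. CpG density was counted as the distinct CpG cytosines, on either strand, that were seen in any library, so it is a lower bound of the density in the genome. The median was 31.4 CpG cytosines per kb in the distal bins (quartiles 19.6 and 46.9), 10.3 in the interior and 11.3 in the proximal bins. The distal median was thus 3.05 times the interior median. The distal bins made up 5.75% of the autosomal bins and held 13.3% of the autosomal CpG cytosines. The distal median was above the interior median on 29 of 29 autosomes, by a ratio of 1.28 on chromosome 19 to 5.62 on chromosome 11, with a median ratio of 2.46. Density is a property of the sequence and its coverage, not of a sample, and was not tested over libraries.

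In steps of 1 Mb, CpG density declined from the end inward. The median over bins was 41.8 CpG cytosines per kb in the last 1 Mb, 38.4 at 1 to 2 Mb, 32.3 at 2 to 3 Mb, 26.1 at 3 to 4 Mb and 23.2 at 4 to 5 Mb. The outermost sequence was not the densest: the last 0.5 Mb had 39.5 CpG cytosines per kb against 43.8 at 0.5 to 1 Mb, and the last 100 kb of all autosomes together had 32.6, the lowest of the 10 steps of the last 1 Mb. Between 5 and 10 Mb the median lay between 19.6 and 22.5, and at 14 to 15 Mb it was 15.4, still above the interior median. There was no step at the 5-Mb border: the 29 bins just inside it had a median of 22.4 CpG cytosines per kb and a level of 70.1%, and the 29 just outside it 22.8 and 70.9%.

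**Figure D1:**
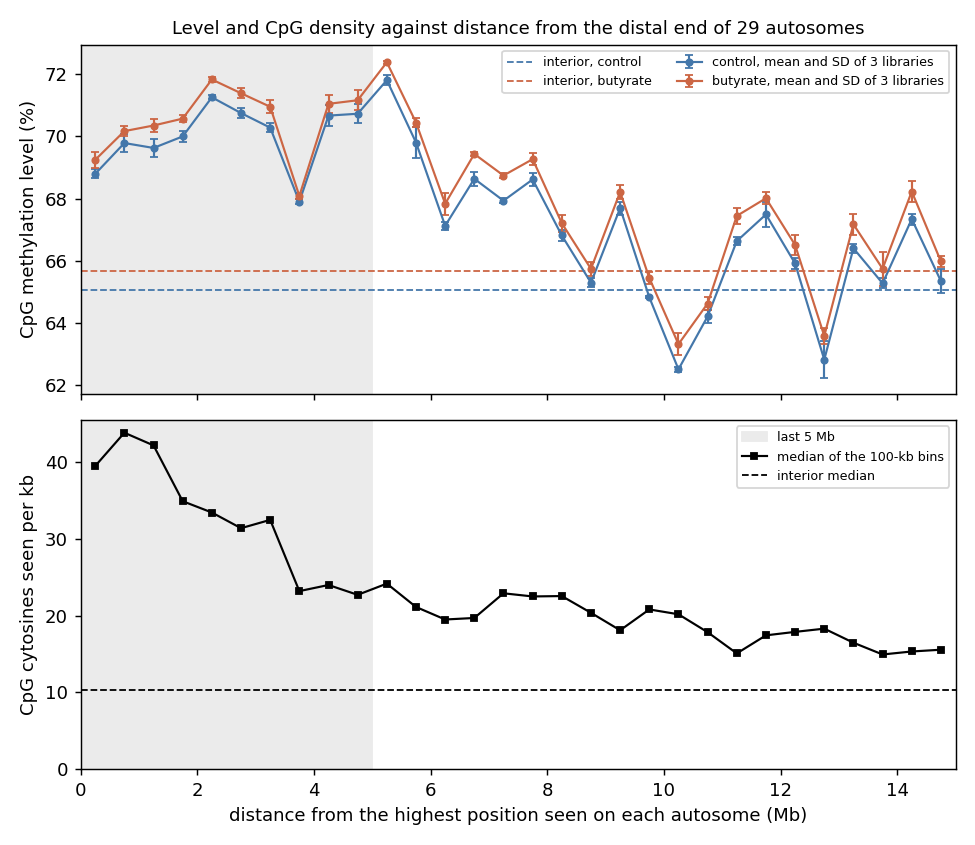
Mean CpG methylation level with SD over 3 libraries of each group (upper panel, percent) and median CpG cytosines seen per kb (lower panel) in steps of 0.5 Mb from the distal end of 29 autosomes, with dashed lines at the interior values and the last 5 Mb shaded. The group means lay between 67.9% and 71.8% over the shaded 5 Mb, above the interior lines at 65.05% (control) and 65.68% (butyrate), while density was highest, at 43.8 per kb, in the step from 0.5 to 1 Mb.

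The distal ends were also more methylated than the interior. The methylation level, methylated reads over all reads of the bins, was 69.96%, 70.11% and 69.83% in the distal bins of control replicates 1 to 3, and 70.52%, 70.39% and 70.54% in butyrate replicates 1 to 3. The interior bins of the same libraries had 65.17%, 65.04% and 64.95% in the controls and 65.74%, 65.56% and 65.73% in the butyrate libraries. Every distal value was higher than every interior value. The difference was 4.86 percentage points (SD 0.109, n = 6; 4.78 to 5.07), positive in 6 of 6 libraries (two-sided exact sign-flip permutation test over libraries, p = 0.03125, the smallest that 6 libraries allow; Benjamini-Hochberg adjusted over the 4 level differences of this kind, 0.03125). Here and below, this p shows that libraries of the same genome agreed, not how far stretches of the genome vary. Steps of 0.5 Mb further inward reached the same exact sign-flip p in both directions. They differed from the interior by -2.45 points at 10 to 10.5 Mb and by 2.42 points at 14 to 14.5 Mb. The 5 Mb next to the distal bins, at 5 to 10 Mb from the end, lay between both at 68.3% (SD 0.354, n = 6). The high level did not stop at 5 Mb, however. At 5 to 6 Mb the level was 71.2%, above the 70.2% of the distal bins, and at 9 to 10 Mb it was 66.4%.

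The proximal ends did not share this level. The proximal 5 Mb had 64.4% (SD 0.303, n = 6), which was 5.81 percentage points below the distal ends (SD 0.0781; 5.70 to 5.91; 6 of 6 libraries, exact sign-flip p = 0.03125). Pooled over reads, the distal level was above the proximal level on 28 of 29 autosomes, all but chromosome 18.

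The higher level was also seen between bins of like CpG density. When interior bins were weighted to the distal shares of 5 density classes that split all autosomal bins equally, the interior level was 64.6% and the difference was 5.60 percentage points (SD 0.145, n = 6; 5.43 to 5.80; exact sign-flip p = 0.03125). The match is incomplete in the densest class, which held 73.4% of the distal bins, because its distal bins had a median of 39.0 CpG cytosines per kb and its interior bins 25.8. With 20 classes in place of 5, the difference was 5.11 percentage points.

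The sign of the difference depended on the class. In the densest class, above 20.3 CpG cytosines per kb, 1059 distal bins had 70.5% against 64.6% in the interior, a difference of 5.94 points (SD 0.147, n = 6). In the next class, from 13.2 per kb, 253 distal bins differed by 3.34 points, and in the middle class, from 9.59 per kb, 88 bins by 0.897 points. The few CpG-poor distal bins were on the other side of the interior. The 32 bins from 7.08 to 9.59 per kb had 61.9% against 68.5%, a difference of -6.67 points, and the 10 bins below 7.08 per kb had 52.2% against 64.9%, a difference of -12.7 points (SD 1.61). All 6 libraries lay on the same side in each of these classes (exact sign-flip p = 0.03125 each; adjusted over 9 classes, 0.03125). Most of the 10 bins below 7.08 per kb lay in 1 stretch of chromosome 15, so their level is largely that of 1 locus. There the steps at 4 to 4.5 and 4.5 to 5 Mb from the end, of 5 bins each, had medians of 6.83 and 6.21 per kb. Their levels were 51.1% and 51.6%.

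At the scale of a CpG island the ends stood further apart from the interior. The genome was also cut into 500-bp windows, classed by the CpG cytosines seen in them. In windows with over 30, called dense windows here, the distal level was 68.0% (SD 0.315, n = 6) and the interior level 52.4% (SD 0.528), a difference of 15.6 points (SD 0.270; 6 of 6 libraries, exact sign-flip p = 0.03125). The libraries gave 67.7%, 68.0% and 67.5% in the distal dense windows of control replicates 1 to 3 and 68.2%, 68.1% and 68.4% in those of butyrate replicates 1 to 3. The interior dense windows gave 51.9%, 52.1% and 51.9% in the controls and 52.8%, 52.7% and 53.1% in the butyrate libraries. The gap between the ends and the interior was thus many times the spread between libraries.

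In sparser windows the ends and the interior were close. Windows with 16 to 30 CpG cytosines had 73.9% in the distal bins and 71.6% in the interior, a difference of 2.32 points. Windows with 6 to 15 had 71.9% and 72.7%, a difference of -0.796 points, and windows with 1 to 5 had 66.6% and 67.2%, a difference of -0.612 points. Each of these differences had the same sign in 6 of 6 libraries (exact sign-flip p = 0.03125 each). The proximal ends differed in another way: 60.7% in their dense windows, between the other two, but 57.6% in windows with 1 to 5 CpG cytosines, below both.

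**Figure D2:**
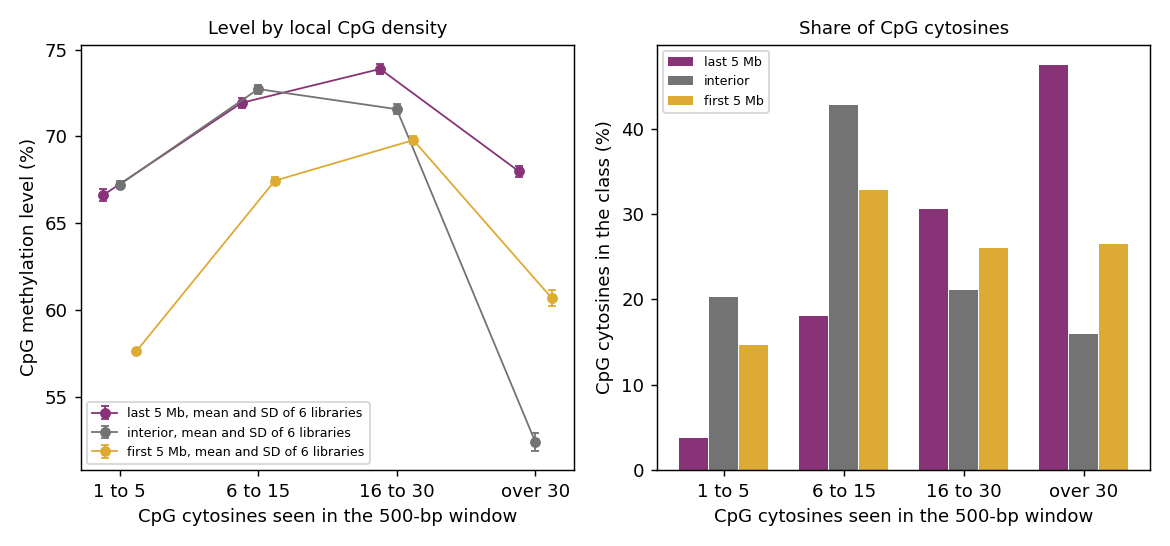
Methylation level (left, percent, mean and SD over 6 libraries) and share of CpG cytosines (right, percent) in 500-bp windows classed by the CpG cytosines seen in them, for the last 5 Mb, the interior and the first 5 Mb of the autosomes. In windows with over 30 CpG cytosines the last 5 Mb had 68.0% and the interior 52.4%, and this class held 47.5% of the distal and 15.9% of the interior CpG cytosines.

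Few of the dense windows at the ends were unmethylated. The distal bins held 50634 dense windows, and 5718 of them, 11.3% (95% Wilson interval 11.02% to 11.57%, counting error only), had a pooled level under 20%. In the interior 31018 of 75641, 41.0%, were that low, and in the proximal bins 2574 of 12749, 20.2%. Counted per Mb, the ends held more low dense windows than the interior, 40.0 against 16.1. They also held far more dense windows that were not low, 314 per Mb against 23.2 in the interior and 70.2 in the proximal bins. Over windows of any density with at least 10 pooled reads, the low share was about equal, 5.32% at the distal ends and 5.27% in the interior. The low share of dense windows was 11.1%, 10.1%, 9.76%, 13.8% and 14.6% in consecutive 1-Mb steps from the end, 28.9% at 8 to 9 Mb and 35.7% at 14 to 15 Mb. CpG-dense sequence of the outer 3 Mb was thus the least often unmethylated of these steps.

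Single distal bins varied widely. Their level over 6 libraries ran from 32.7% to 91.0%, with a median of 70.1% and an SD of 9.32 points between bins. The median SD of a bin between libraries was 1.82 points, against 2.81 in the shallower interior bins. A level under 50% was seen in 45 distal bins (3.12%), on 22 autosomes, 12 of the 45 on chromosome 18. The corresponding shares were 7.29% in the interior and 16.3% in the proximal bins. A level of 75% or more was seen in 404 distal bins (28.0%), 21.3% of the interior bins and 13.9% of the proximal bins. As a description over the 1442 distal bins, which share libraries and differ in depth, level and CpG density had a Spearman correlation of 0.139. The correlation was 0.0144 over the interior bins.

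The most methylated distal bins lay below the distal median density. Among bins with at least 200 reads in every library, the highest levels were 91.0% on chromosome 24 (61100001 to 61200000; 86.9% to 92.9% over the libraries, 11.5 CpG cytosines per kb), 91.0% on chromosome 1 (156000001 to 156100000; 90.0% to 91.8%, 19.5 per kb) and 90.5% on chromosome 2 (132300001 to 132400000; 88.4% to 92.5%, 11.7 per kb). They lay 1565, 2287 and 4710 kb from the end and held 0, 8 and 0 dense windows. The lowest levels were 32.7% in the last bin of chromosome 24 (62700001 to 62714586), 33.9% on chromosome 20 (70100001 to 70200000, 1892 kb from the end) and 34.0% in the last bin of chromosome 22 (61400001 to 61435689). In the bin of chromosome 20, 24 of 38 dense windows had a level under 20%. The controls had 29.98%, 33.4% and 30.6% in it and the butyrate libraries 37.9%, 36.3% and 35.1%, which did not overlap. In limma this bin had a Benjamini-Hochberg adjusted p of 0.882.

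The 3 densest distal bins had levels below the distal median of 70.1%. The bin with the most CpG cytosines per kb was the last bin of chromosome 18 (66000001 to 66003996), which is only 3996 bp long, with 124 per kb and 60.9%. A full bin of chromosome 22 (60000001 to 60100000) had 92.7 per kb, with 67.8% and 19 low windows among 150 dense ones. The last bin of chromosome 11 (107300001 to 107310711, 10711 bp) had 91.1 per kb and 69.6%, with 0 of 15 dense windows low. Despite its short length it held 10209 to 12478 reads per library, against a median of 1566.5 per distal bin, so it was unusually deeply read.

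The very last bin of each autosome runs from a multiple of 100 kb to the last position seen and so differs in length, from 3996 to 98890 bp among the 24 that met the read minimum. The level of these 24 bins ran from 32.7% on chromosome 24 to 82.9% on chromosome 2, with a median of 63.5%, and their density from 11.8 to 124 CpG cytosines per kb. Summed over the 29 autosomes by exact distance, the outermost 100 kb had 68.3% (SD 0.325, n = 6) and the next 100 kb 65.4% (SD 0.482), the lowest of the 10 steps of the last 1 Mb. Deeply read last bins weigh heavily in the outermost value. Those of chromosomes 2 and 11 held 6205 to 7977 and 10209 to 12478 reads per library. In its lowest library the outermost 100 kb held 82024 reads and the next 51362, although their densities were 32.6 and 37.3 CpG cytosines per kb.

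Within the last 5 Mb the level did not run one way on all autosomes. Over all 29 together, the last 1 Mb had 69.5% and the bins 4 to 5 Mb from the end 70.9%, a difference of -1.42 points (SD 0.147, n = 6; -1.65 to -1.26; 6 of 6 libraries, exact sign-flip p = 0.03125). With each autosome weighted the same it was -0.435 points, and over the CpGs covered in all 6 libraries, a thin and deeply read subset of 1.26% of the distal CpGs, it was 1.07 points, with the sign turned. On 13 autosomes the last 1 Mb was lower in 6 of 6 libraries, on 14 it was higher in 6 of 6, and 2 were mixed. The differences ran from -14.8 points on chromosome 29 (61.3% in the last 1 Mb against 76.1%) and -11.5 on chromosome 1 to 10.05 on chromosome 4, 10.04 on chromosome 8 and 17.4 on chromosome 15 (68.6% against 51.3%). These spans were several times the pooled difference. Density, by contrast, was higher in the last 1 Mb on 24 of 29 autosomes.

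**Figure D3:**
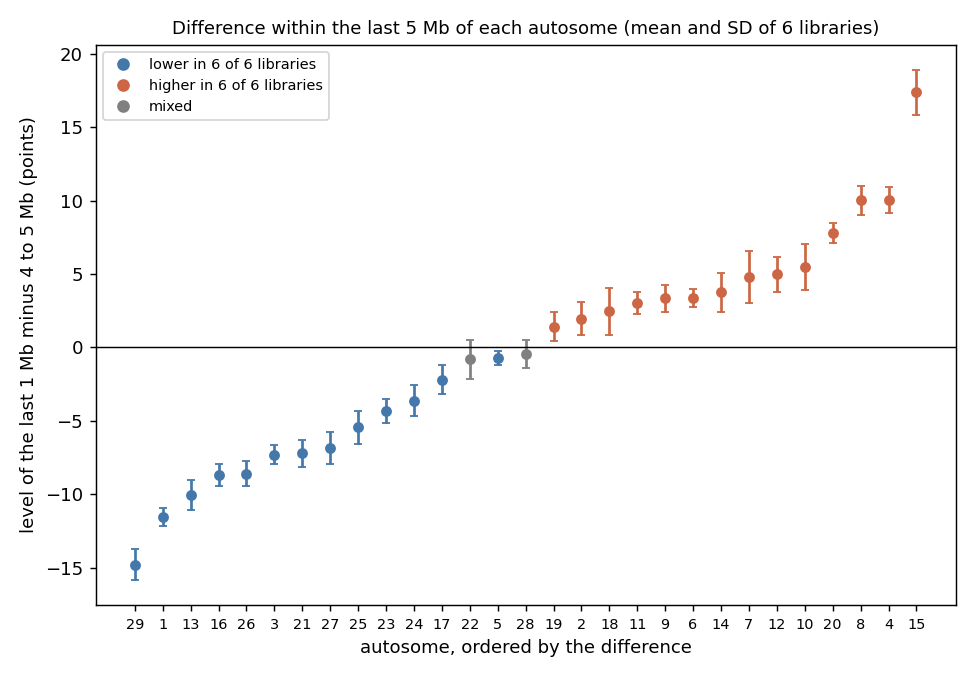
Methylation level of the last 1 Mb minus that of the bins 4 to 5 Mb from the end (percentage points, mean and SD over 6 libraries) for each autosome, ordered by size and coloured by how many libraries agreed in sign. The differences run from -14.8 on chromosome 29 to 17.4 on chromosome 15, with 13 autosomes lower, 14 higher and 2 mixed.

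Pooled over reads, the distal level was above the interior level of the same autosome on 28 of 29 autosomes. It was above in 6 of 6 libraries on 27 of them (adjusted over 29 autosomes, exact sign-flip p = 0.0324 each). The median difference was 4.48 points. It was largest on chromosome 7, where the last 5 Mb had 75.3% (SD 0.572, n = 6) and the interior 62.5%, a difference of 12.8 points. Chromosome 19 followed with 74.2% against 63.0%, 11.2 points, and chromosome 27 with 72.5% against 61.5%, 11.03 points. These 3 ends were not the densest: they had 16.4, 27.9 and 18.2 CpG cytosines per kb, and the low share among their dense windows was 7.21%, 9.25% and 7.80%. Chromosome 11, the densest end with 60.2 per kb, had 70.3% against 67.1%. Over the 29 ends, which share the 6 libraries, distal level and distal density had a Spearman correlation of -0.264, given as a description. Other weights were not run within single autosomes. The count of 28 thus holds for pooled levels, in which deeply read bins weigh more. On chromosome 8 the pooled level was 69.4% against 66.1% in the interior. Its steps from 2 to 2.5 Mb and from 3 to 5 Mb had 50.8% to 63.1%, below that interior. Its other steps had 68.7% to 77.0%.

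At the other extreme, chromosome 15 had 66.9% against 66.0%, 0.967 points, and chromosome 28 had 68.1% against 68.0%. On chromosome 28 the difference was 0.108 points with 4 of 6 libraries above 0 (exact sign-flip p = 0.4375), and 24.8% of its dense windows were low. Of the gene-dense autosomes 18, 19 and 25, chromosome 19 was near the top of the order, chromosome 25 had 68.9% against 65.6%, and chromosome 18 was last.

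Chromosome 18 was the exception. Its last 5 Mb had 55.1%, 54.6% and 54.6% in control replicates 1 to 3 and 54.9%, 55.1% and 55.3% in butyrate replicates 1 to 3. Its interior had 63.8%, so that the end was lower by 8.84 points in 6 of 6 libraries (exact sign-flip p = 0.03125, adjusted 0.0324). The other 28 ends lay between 66.9% and 75.3%, so chromosome 18 stood apart from all of them by far more than the spread between libraries. The low level covered the whole 5 Mb: in steps of 0.5 Mb it ran from 50.9% to 59.2%, and 33.4% of the 1257 dense windows were low, with a dense-window level of 46.5% against 62.3% to 75.2% on the other autosomes. The low level was not confined to the last 5 Mb. Further inward it was uneven but mostly low: the steps from 5.5 to 6.5 Mb had 51.8% and 55.3%, and those from 7 to 10 Mb ran from 43.4% to 59.6%. Only the steps from 5 to 5.5 Mb and from 6.5 to 7 Mb, with 64.2% and 66.0%, were above the interior of the chromosome. Without chromosome 18 the distal level was 70.6% and the distal minus interior difference 5.21 points (SD 0.112, n = 6).

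As background on that end, in the gene order of another cattle assembly, ARS-UCD2.0, the outermost named genes of chromosome 18 include ZNF324, ZNF446, MZF1 and ZBTB45, which encode zinc-finger proteins, and TRIM28, the co-repressor that many zinc-finger proteins recruit. Of the 100 outermost protein-coding genes there, 27 had ZNF names on chromosome 18, against 0 to 10 on each of the other 28 autosomes. Of these 100 genes, 55 had a name on chromosome 18, against 78 to 95 on the other autosomes, so the counts have unequal bases. The 100 genes need not span the last 5 Mb. The ZNF count was made after the methylation values were seen, no gene was placed in a bin, and no test was made of it.

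**Figure D4:**
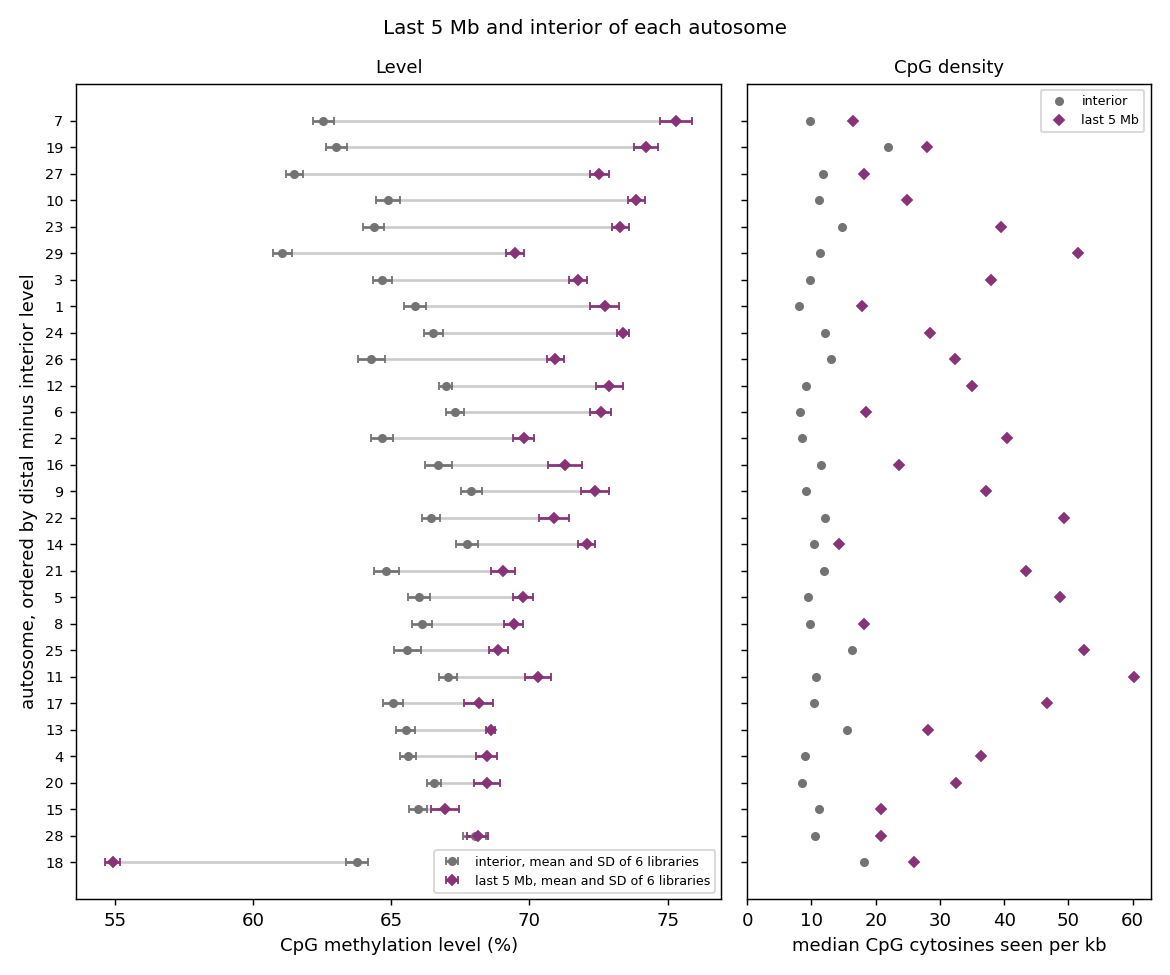
Methylation level (left, percent, mean and SD over 6 libraries) and median CpG cytosines seen per kb (right) of the last 5 Mb and of the interior of each autosome, ordered by the difference in level. Pooled over reads, the last 5 Mb lies above the interior on all but chromosome 18 (54.9% against 63.8%). On chromosome 28 both nearly coincide, while the density of the last 5 Mb is higher on all 29.

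The study's contrast was butyrate against control after 24 h. At the distal ends the controls had a mean level of 69.97% (SD 0.143, n = 3) and the butyrate libraries 70.48% (SD 0.0838, n = 3), which is 0.515 percentage points higher. No control reached the lowest butyrate library (exact permutation test, two-sided, p = 0.1, the smallest that 3 against 3 allows). Butyrate replicate 2, the treated library of lane 6, was 0.418 points above the mean and 0.272 points above the highest of the controls of its lane. All controls were on lane 6, so the lack of overlap given above already placed this library above them. The interior showed the same direction, 65.05% (SD 0.108) against 65.68% (SD 0.0991), a difference of 0.624 points with no overlap and the same p. The higher level with butyrate was thus seen outside the ends too.

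The difference with butyrate was not shown to differ between the ends and the interior as a whole. The distal minus interior difference was 4.80, 5.07 and 4.88 points in control replicates 1 to 3 and 4.78, 4.82 and 4.81 in butyrate replicates 1 to 3, a mean change of -0.109 points with overlap of the groups (exact permutation p = 0.3). The value rested on single libraries: it was -0.169 points with no overlap without control replicate 1, and -0.0296 points with overlap without control replicate 2. It was 0.0181 points when every bin weighed the same. At equal CpG density the change was -0.237 points (5.62, 5.80 and 5.72 in the controls against 5.43, 5.52 and 5.48), with no overlap (exact permutation p = 0.1, the smallest possible).

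Dense windows showed the largest such gap of the 4 window classes. With butyrate, the level of interior dense windows was higher by 0.927 points and that of distal dense windows by 0.483 points, both with no overlap of the groups. The distal minus interior difference in dense windows changed by -0.443 points (no overlap, exact permutation p = 0.1), and by -0.379 to -0.529 with any single library omitted. In the other 3 classes this change lay between 0.0061 and 0.0918 points, with overlap. By distance, the level of the last 1 Mb was higher with butyrate by 0.416 points, and its difference from the interior changed by -0.208 points (no overlap, exact permutation p = 0.1). From 1 to 5 Mb the corresponding change was -0.0696 points with overlap (exact permutation p = 0.6). In steps of 0.5 Mb, however, both steps of the last 1 Mb overlapped (-0.172 and -0.241 points, exact permutation p = 0.3 and 0.2), and of the 10 steps of the last 5 Mb only that from 3.5 to 4 Mb did not (-0.442 points, exact permutation p = 0.1). The changes for dense windows and for the last 1 Mb were read out after other results of these data were known. None of the changes of this kind was adjusted for their number. Where 3 and 3 libraries do not differ, each has a probability of 0.1 of no overlap.

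**Figure D5:**
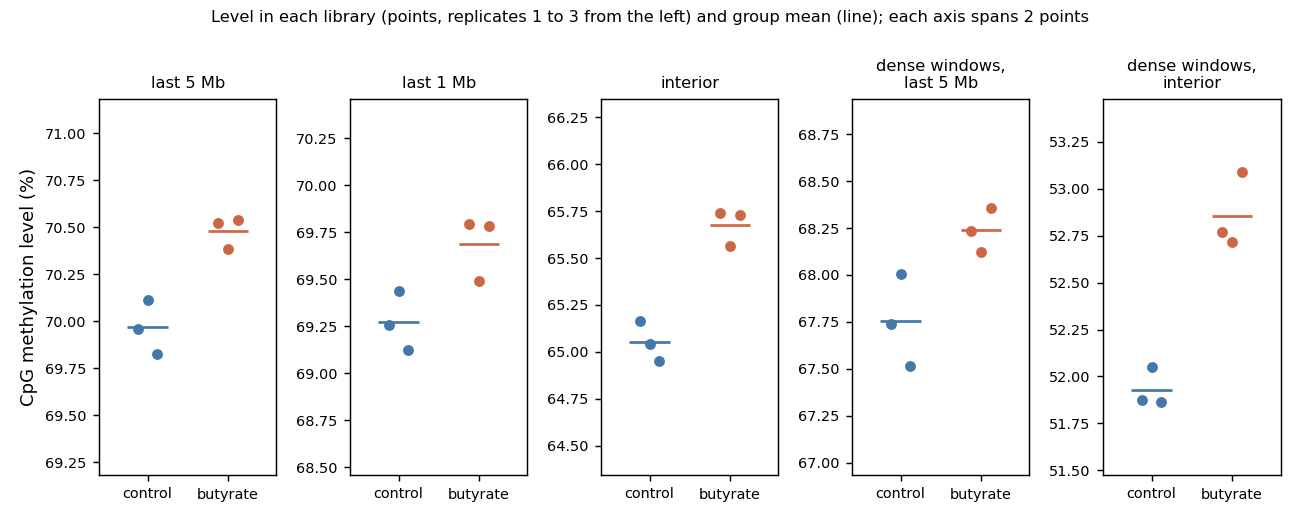
Methylation level (percent) of each library in the last 5 Mb, the last 1 Mb, the interior, and the windows with over 30 CpG cytosines of the last 5 Mb and of the interior, with the group mean as a line and each axis spanning the same 2 points. The butyrate libraries lie above all controls in every panel, by 0.515, 0.416, 0.624, 0.483 and 0.927 points on average.

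No single distal bin passed the test for butyrate. In limma with Benjamini-Hochberg adjustment over 27035 bins, 0 of 1442 distal bins had an adjusted p under 0.05, against 0% of all bins, and the smallest adjusted p among them was 0.882. On simulated counts with counting error only, limma called 48% of changes of 10 points in bins. The absence of calls thus does not exclude changes of that size. At an unadjusted p under 0.05, 31 distal bins were higher with butyrate (2.15%), against a background of 3.89% of all bins, and 9 were lower (0.624%), against 1.69%. The groups did not overlap, with butyrate higher, in 142 distal bins (9.85%, background 7.83%), and with butyrate lower in 43 (2.98%, background 3.33%). For bins higher with butyrate, the distal share was thus below the background by unadjusted p and above it by lack of overlap. Distal bins hold more reads than interior bins, the background includes bins outside the autosomes, and the part of depth in these shares was not tested. At any size of difference, 944 distal bins (65.5%) were higher with butyrate, against 59.7% of all bins. With levels centred on the library median, these shares were 54.3% and 51.5%.

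The bins with the smallest unadjusted limma p in each direction are given as values, since none passed the adjustment. On chromosome 3 (118200001 to 118300000) the controls had 70.9%, 71.1% and 72.3% and the butyrate libraries 78.7%, 77.0% and 78.5% (log2 difference of the methylated to unmethylated ratio 0.51, SE 0.12). On chromosome 7 (112500001 to 112600000) the controls had 74.0%, 71.5% and 71.4% and the butyrate libraries 78.8%, 80.2% and 77.8%. On chromosome 10 (103900001 to 104000000) the group means were 55.2% and 64.1%. Among bins that were lower with butyrate, the one on chromosome 28 (41700001 to 41800000) had 72.6%, 69.6% and 69.0% in the controls and 56.7%, 67.2% and 63.2% with butyrate, and those on chromosome 14 (80800001 to 80900000) and chromosome 29 (47000001 to 47100000) had differences of -8.70 and -3.63 points. All 6 had an adjusted p of 0.882.

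Summed over the last 5 Mb of each autosome, the level was higher with butyrate at 28 of 29 ends (96.6%), against 88.6% of all 501 segments of 5 Mb counted back from the autosome ends. Chromosome 14 was the exception, where the butyrate mean minus the control mean was -0.0409 points. The groups were separate at 17 ends (58.6%), all higher with butyrate, against 35.3% of all segments, and none did so with butyrate lower, against 0.2%. Distal bins hold more reads than interior bins (above), and the part of depth in this share was not tested. In limma over the 501 segments, 0 of 29 ends had an adjusted p under 0.05, against 0% of all segments, and 6 had an unadjusted p under 0.05 with butyrate higher (20.7%, background 27.3%) and 0 with butyrate lower (background 0.2%). These 6 were the ends of chromosomes 7, 16, 1, 19, 11 and 22. When levels were centred on the library median, 0 ends had an unadjusted p under 0.05 in either direction (25 of all 501 segments did), and with lane as a term 1 end had (57 of 501), against 138 of 501 in the fit without either. With that centring, 58.6% of the ends and 54.7% of all segments were higher with butyrate, in place of 96.6% and 88.6%. The end of chromosome 16 had 70.9%, 71.0% and 70.5% in the controls and 72.1%, 71.6% and 71.6% with butyrate, a difference of 1.01 points, the largest of the 29, and that of chromosome 7 followed with 0.931 points. Both had a Benjamini-Hochberg adjusted p of 0.104 in limma.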

How the data were processed

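WGBS of 3 control and 3 butyrate REPC libraries was used. As the study's methods state, Trim_Galore 0.4.1 was used to trim the reads and bowtie2 to map them to UMD3.1.1, and Bismark at its default settings gave the methylation calls. The submitters' notes name UMD3.1, and the labels and methods differ in read length and run type. Of duplicate removal and conversion rate the sources used here say nothing. Each deposited file holds, for every CpG cytosine with a read, the count of methylated and of unmethylated reads, which the authors did not normalise. The low-input kit copies from random primers, and copies of a molecule may be counted more than once.

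The 6 files were joined by sequence and position (Python 3.11.15, NumPy 2.4.6, SciPy 1.17.1), and counts were summed in bins; the 29 autosomes were taken in the order of their names. Total CpG reads per library were 18793438 to 23842285. Levels were pooled over reads, so deeply covered CpGs weigh more. Paired differences were tested by exact sign flips over 6 libraries, group differences by exact permutation over splits of 3 and 3. Bins and 5-Mb segments with at least 25 bins were tested with limma 3.58.1 (R 4.3.3) on log2((methylated + 1)/(unmethylated + 1)), adjusted over all; the code was tested on simulated data. Counts of replicate pairs over the distal bins differed by more than independent reads would give (chi-square over degrees of freedom 3.07 to 3.39), and none was merged. CpG reads of 1 molecule or of its copies are not independent, and their part in this excess was not tested. The study's methods call the libraries biological replicates, and the labels number them without naming a culture; all come from cells of 1 calf.

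Named autosomes were the 3 with the highest and the 3 with the lowest distal minus interior difference. Named bins were the 3 highest and 3 lowest in level (at least 200 reads), the 3 with the smallest limma p in each direction without overlap, the 3 densest, and the last bins as a group; chromosomes named for the difference within the ends, and others, were chosen after their values were seen. Members and lists were chosen with earlier results of these data known. No gene annotation of UMD3.1.1 was used here. Alternatives were other read minima, weights, bin sizes, widths of the end and interior, CpG subsets, the replicate block, lane, other limma settings, and leaving out each library; leaving out chromosome 18, the dense-window results and the change with butyrate at equal density were added after seeing the data.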

Additional observations from a re-analysis of the deposited data

How the results depend on the processing

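The distal minus interior difference (3.59 to 5.89 points) and its value at equal density (4.72 to 6.35) kept their sign in every library under each alternative run. So did the distal minus proximal difference (4.14 to 8.10) and the dense-window difference (13.4 to 16.8). The distal butyrate difference (0.418 to 0.687, the lowest value within lane 6) kept its sign and separation. Leaving out a library could change none of these outcomes, since they already held in every library. Within lane 6 and with the replicate block the separation was fixed in advance too. Every butyrate library lay above every control, and all controls were on lane 6. The lower level of the last 1 Mb turned to 1.07 points over CpGs covered in all 6 libraries. The change with butyrate in the distal minus interior difference was 0.0181 points when every bin weighed the same, and from -0.169 to -0.0296 points with single libraries omitted. Deviations from the group means had correlations of -0.0691, -0.0053 and -0.0525 between same-numbered libraries and of -0.0198 to 0.0714 between the others. Pairing by replicate number was thus not seen in these values, which do not exclude it. With the replicate block, the change with butyrate in the distal minus interior difference was -0.109 points, with all 3 pairs of 1 sign (exact sign-flip p = 0.25, the smallest possible). The block changed no other call at the ends. The density difference of 21.1 CpG cytosines per kb was 0.225 over CpGs covered in all 6 libraries, where the medians themselves were 0.285 and 0.06. limma called 0 distal bins and 0 ends under each setting run; of all 501 segments it called 28 with the replicate block, 2 without control replicate 1 and 0 otherwise. With lane as a term, 19 distal bins (1282 of all 27035) and 1 end (57 of 501 segments) had an unadjusted p under 0.05, in place of 40 (1509) and 6 (138). The ends at that p numbered 3 without control replicate 1 (125 of 501 segments) or 3 (100 of 501), and from 4 to 8 without each of the other 4 libraries. Alternatives with the CpG density of the reference genome were not run, and neither were other weights within single autosomes. The part of depth in the spread of single distal bins between libraries (median SD 1.82 points) was not tested.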
